A study of Homo sapiens with 6 samples.

Results

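NRF2, the transcription factor encoded by NFE2L2, was examined together with KEAP1, its inhibitor, and 7 of its antioxidant targets, NQO1, GCLC, GCLM, TXNRD1, SRXN1, HMOX1 and SLC7A11. These 9 genes were taken by symbol from 81496 gene symbols on the array, and each had 1 probe set, so no choice between probe sets arose. The comparison was between MCF10.AT1 and MCF10.AT1-R. The first is a preneoplastic line of human breast epithelium from the MCF10A series that carries an activated HRAS. The other is the line derived from it by selection in fluvastatin, an inhibitor of HMG-CoA reductase in the mevalonate pathway, at doses from 1 to 20 µM. Total RNA of 3 replicates of each line was hybridised to Clariom D, a whole-transcriptome array. The labels call the MCF10.AT1 cells untreated and sensitive, and they class both lines as breast cancer. Their treatment text lists the fluvastatin doses for all 6 samples alike, and they do not state whether fluvastatin was in the medium of the resistant cells at harvest. MCF10.AT1-R is 1 derived line, so its arrays show how much this line varied and not how much independent selections would.

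In unstressed cells KEAP1 holds NRF2 in a CUL3 ubiquitin ligase and NRF2 is degraded. Oxidants and electrophiles modify cysteines of KEAP1, NRF2 then accumulates, pairs with small MAF proteins and binds the antioxidant response element in the promoters and enhancers of its targets. Since this control acts on the protein, NFE2L2 mRNA does not measure NRF2 activity, and the target mRNAs are the usual readout. The targets make glutathione, keep thioredoxin and peroxiredoxins reduced, detoxify quinones and degrade heme.

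The arrays are called here by the names of their data columns. A01, A02 and A03 are MCF10.AT1 and B02, B03 and B04 are MCF10.AT1-R, as the study's principal component plot marks them. The study removed A03 as an outlier, and in the deposited values the Pearson correlation over transcript probe sets was 0.779 to 0.795 between A03 and each other array but 0.967 to 0.977 among the other 5. On A03, 8 of the 9 genes read below every other array, with SRXN1 as the exception. For HMOX1 the margin was minimal, 3.0813 on A03 against 3.0822 on B04. A03 is given apart, and the comparison rests on 2 MCF10.AT1 arrays and 3 MCF10.AT1-R arrays. The letters A and B in the array names coincide with the lines and what they stand for is not stated, so anything else they mark cannot be told apart from the line. Hybridization controls were on average 0.44 higher on the log2 scale in the MCF10.AT1-R arrays than in A01 and A02, and their part in the changes was not tested. All 6 markers of basal breast epithelium and all 6 pan-epithelial markers were above the negative controls in both lines. They were also all higher in MCF10.AT1-R without overlap, as were 16.2% of the 30083 symbols above the negative controls. The summed log2 levels of these markers were 41.4 to 41.8 against 54.0 to 54.7 for the basal list. For the pan-epithelial list they were 43.9 to 44.2 against 50.5 to 51.1. The part of these markers in the results below was not tested. Of 5 cornified keratinocyte markers 3 were higher in MCF10.AT1-R without overlap, with summed log2 levels of 15.5 to 15.7 against 17.5 to 19.0. The fibroblast, leukocyte and endothelial lists had 1 marker each that was lower without overlap, and the leukocyte list 1 that was higher. DCN of fibroblasts read a mean of 5.32 in MCF10.AT1 against 3.17 in the resistant line, and PTPRC of leukocytes was within the negative controls.

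The core of the antioxidant response element was searched as TGACNNNGC, in which N is any base, on both strands of RefSeq promoter windows on GRCh38.p14 that reach from 250 bases before to 50 after an annotated start. Windows were found for 7 of the 9 genes, all but HMOX1 and SLC7A11. The core stood in at least 1 window of 3 of these 7, KEAP1, GCLM and TXNRD1, and in the windows of 16.1% of all 27305 genes. The last 150 bases before the start are printed for TXNRD1 and NQO1, which read lower in MCF10.AT1-R, the former with and the latter without the core, and for GCLM and KEAP1, which hold the core and whose arrays overlapped between the lines. They run 5′ to 3′ on the strand of the gene, and capitals mark the core. In KEAP1 the core stands on both strands, and in TXNRD1 and GCLM it reads on the opposite strand.
TXNRD1, chr12:104286882-104287031, plus strand: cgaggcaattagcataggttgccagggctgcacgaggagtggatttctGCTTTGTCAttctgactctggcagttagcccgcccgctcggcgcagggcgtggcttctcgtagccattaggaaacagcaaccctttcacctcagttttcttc
NQO1, chr16:69726561-69726710, minus strand: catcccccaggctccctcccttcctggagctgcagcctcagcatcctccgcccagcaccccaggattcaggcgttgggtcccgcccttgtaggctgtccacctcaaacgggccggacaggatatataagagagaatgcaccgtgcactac
GCLM, chr1:93909431-93909580, minus strand: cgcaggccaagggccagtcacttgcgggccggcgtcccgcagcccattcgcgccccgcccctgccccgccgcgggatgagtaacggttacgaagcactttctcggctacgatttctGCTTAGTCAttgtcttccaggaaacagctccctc
KEAP1, chr19:10502772-10502921, minus strand: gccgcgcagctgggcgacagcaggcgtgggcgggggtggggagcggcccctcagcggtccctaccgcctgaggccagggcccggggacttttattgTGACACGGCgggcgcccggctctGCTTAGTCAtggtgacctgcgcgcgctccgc
No base in the NQO1 window matched the core, and neither did the windows of NFE2L2, GCLC and SRXN1, which says only that these letters are not within this distance of these starts. The GCLM match began 34 bases before the start and the KEAP1 matches 54 and 31 bases before it. The printed TXNRD1 match began 102 bases before its start, start 2 in the map of matches, and another TXNRD1 window, start 1, had matches that began 99 and 8 bases before it. None of the matches in the 3 genes overlapped TGANTCA, the AP-1 site that the element can contain.

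**Figure D1:**
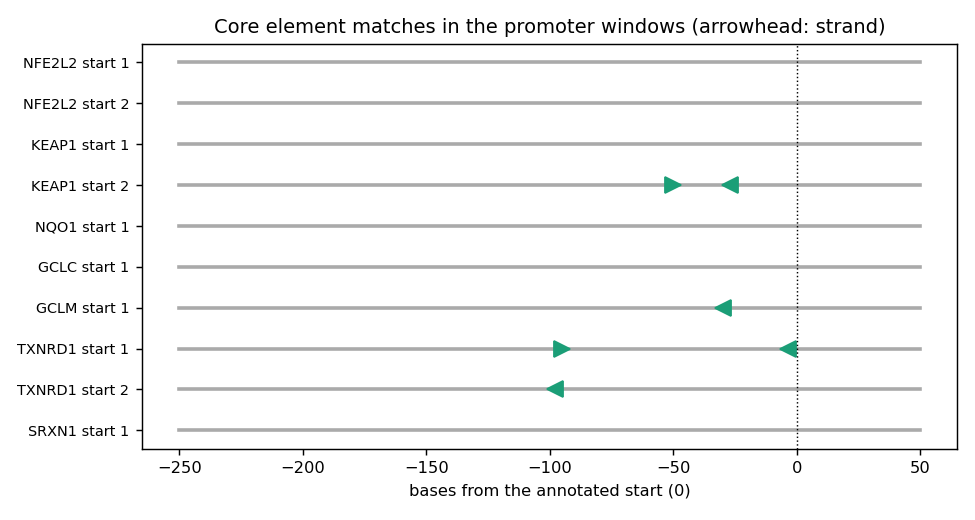
Matches to the core of the antioxidant response element in the promoter windows of 7 genes. Each line is a window, the horizontal axis gives bases from the annotated start, and an arrowhead pointing right marks a match on the strand of the gene, one pointing left a match on the opposite strand. Only KEAP1 start 2, GCLM and the 2 TXNRD1 starts hold a match.

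The arrays of the lines overlapped for NFE2L2 and for KEAP1. The NFE2L2 log2 values were 6.22 and 6.05 in MCF10.AT1 and 6.37, 6.04 and 6.47 in MCF10.AT1-R, with 2.31 on A03. B03 lay just under both MCF10.AT1 arrays and the other MCF10.AT1-R arrays above them, so the lines overlapped. The change was 0.16 ± 0.31 (SE, 95% confidence interval -0.45 to 0.77, limma adjusted p = 0.903). KEAP1 read 4.79 and 4.80 in MCF10.AT1 and 5.18, 4.22 and 4.56 in MCF10.AT1-R, with 3.25 on A03. The MCF10.AT1-R arrays lay on both sides of the 2 closely spaced MCF10.AT1 arrays, and the change of -0.14 ± 0.31 (SE, 95% confidence interval -0.75 to 0.47, limma adjusted p = 0.918) was within their spread. It turned to 0.081 without B03.

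SLC7A11, the cystine transporter that brings in the precursor of glutathione, had the largest change of the 9 genes. It read 7.40, 6.96 and 7.34 in MCF10.AT1-R against 8.23 and 8.15 in MCF10.AT1, with 2.13 on A03. Every MCF10.AT1-R array was lower than both MCF10.AT1 arrays, by at least 0.75. The change was -0.96 ± 0.31 (SE, 95% confidence interval -1.57 to -0.35), a level 1.94-fold lower in the resistant line. Its unadjusted p was 0.00212 and its limma adjusted p 0.119. SLC3A2, the heavy chain that pairs with it in the transporter, read 9.64 and 9.67 in MCF10.AT1 and 9.85, 9.94 and 10.01 in MCF10.AT1-R. It was higher there without overlap, with a gap of 0.18, a change of 0.28 in the other direction. The filter on variation removed it, and it did not pass in the fit without a filter (limma adjusted p = 0.833). With limma's trend option and the low-expression filter alone its adjusted p was 0.0848. SLC3A2 was named here after its values were seen.

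NQO1, the cytosolic quinone reductase, and TXNRD1, the cytosolic thioredoxin reductase, also read lower on every MCF10.AT1-R array. For NQO1 the values were 8.96, 8.76 and 9.05 in MCF10.AT1-R against 9.41 and 9.45 in MCF10.AT1, with 2.83 on A03. The lines did not overlap, with a gap of 0.36, and the change was -0.51 ± 0.31 (SE, 95% confidence interval -1.12 to 0.10, limma adjusted p = 0.733). TXNRD1 read 7.29, 7.29 and 7.33 in MCF10.AT1-R against 7.73 and 7.85 in MCF10.AT1, with 1.92 on A03. Its lines did not overlap either, with a gap of 0.40, and the change was -0.49 ± 0.31 (SE, 95% confidence interval -1.10 to 0.13, limma adjusted p = 0.753). These differences correspond to levels 1.42-fold and 1.40-fold lower in MCF10.AT1-R.

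The genes of enzymes that make glutathione differed less. GCLC, the catalytic subunit of glutamate-cysteine ligase, read 4.48 and 4.57 in MCF10.AT1 and 4.49, 4.58 and 4.26 in MCF10.AT1-R. GCLM, the modifier subunit of the same ligase, read 5.82 and 5.77 in MCF10.AT1 and 5.83, 5.58 and 5.77 in MCF10.AT1-R. Both overlapped between the lines, and their changes were -0.09 ± 0.19 for GCLC (95% confidence interval -0.53 to 0.36) and -0.06 ± 0.19 for GCLM (95% confidence interval -0.49 to 0.37). SRXN1, sulfiredoxin, which restores over-oxidised peroxiredoxins, read 4.47 and 4.36 in MCF10.AT1 and 3.89, 4.54 and 4.59 in MCF10.AT1-R. B02 alone was below both MCF10.AT1 arrays, and the change of -0.08 ± 0.31 (95% confidence interval -0.69 to 0.53) became 0.15 without it. HMOX1, heme oxygenase 1, was near the limit of detection. It read 3.19 and 3.44 in MCF10.AT1 and 3.28, 3.13 and 3.08 in MCF10.AT1-R, against 2.99 for the 95th percentile of the 612 negative controls. Its change was -0.15 ± 0.19 (95% confidence interval -0.59 to 0.29). On A03 these genes read 2.31 for GCLC, 1.55 for GCLM, 4.04 for SRXN1 and 3.08 for HMOX1. All 4 limma adjusted p-values lay between 0.921 and 0.972. GCLC, GCLM and HMOX1 varied too little over the arrays to pass the filter on variation, and their errors and p-values come from the fit to all probe sets without a filter.

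**Figure D2:**
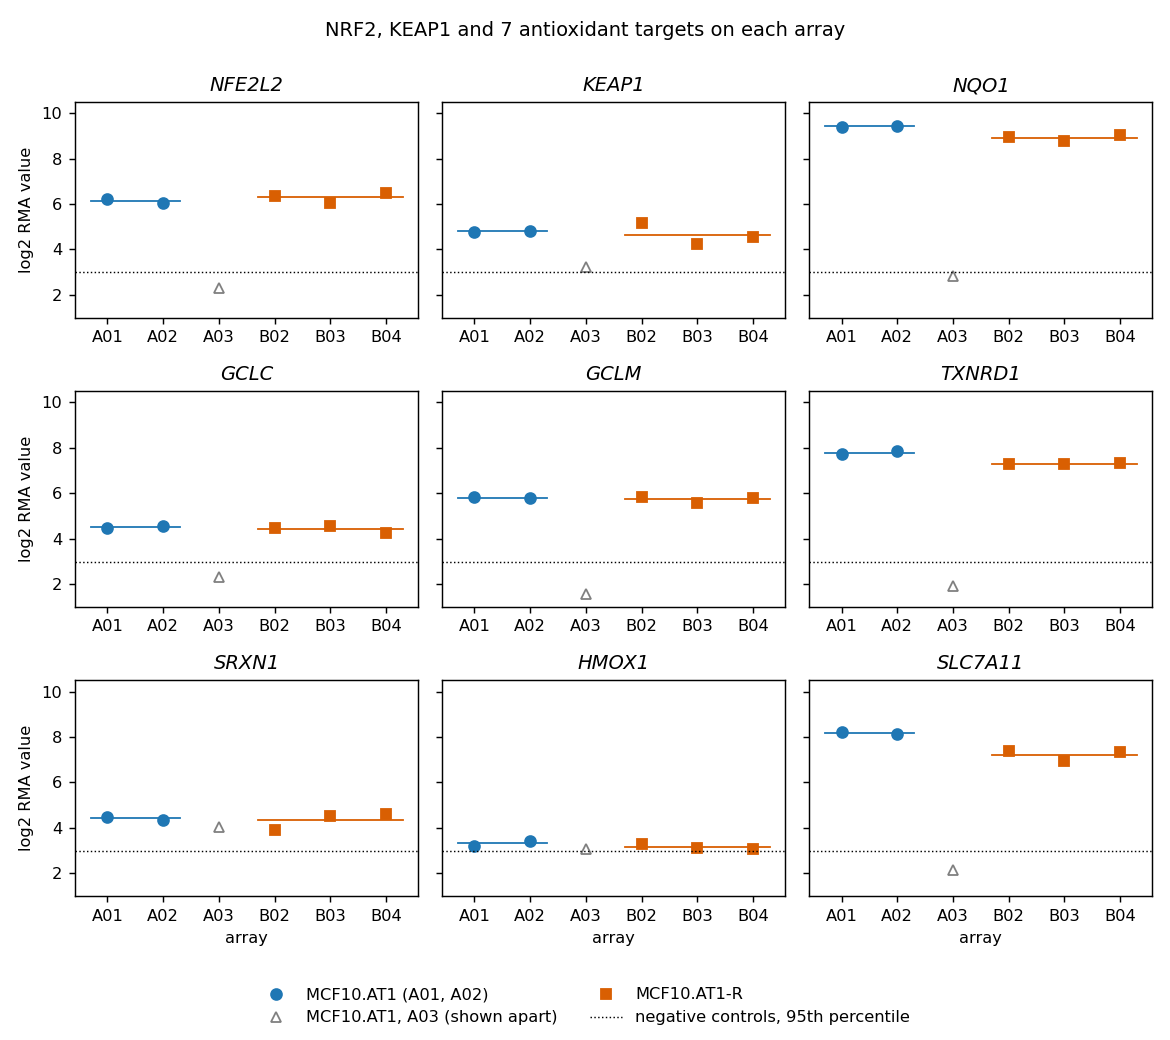
Log2 RMA values of the 9 genes on each of the 6 arrays, with circles for A01 and A02, an open triangle for A03 and squares for MCF10.AT1-R. Horizontal bars are line means and the dotted line is the 95th percentile of the negative controls. NQO1, TXNRD1 and SLC7A11 are lower on every MCF10.AT1-R array than on A01 and A02, and the other 6 genes overlap.

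Of the 9 genes, 3 were lower in MCF10.AT1-R without overlap, 0 were higher without overlap and 6 overlapped. The same ordering of the arrays, lower in MCF10.AT1-R, was seen for 16% of the 30083 symbols above the negative controls, and the opposite one for 16.2%, 32.2% in all. The median change of the 9 genes was -0.14 and that of all these symbols -0.01. With limma and Benjamini-Hochberg adjustment, 0 of the 9 genes passed an FDR of 5%, while SLC7A11 alone had an unadjusted p under 0.05. In the same fit 1.2% of 51457 probe sets passed, 0.447% as lower and 0.758% as higher. Of the 20866 symbols above the negative controls in it, 165 passed as lower and 337 as higher.

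Whether the 3 lower genes passed depended on how limma set the variance. After the filter on variation it used a common SD of 0.341 for every probe set, whereas the residual SDs of NQO1, TXNRD1 and SLC7A11 themselves were 0.124, 0.0552 and 0.198. With limma's trend option, which lets the variance follow the expression level, 2 of the 9 genes passed as lower, NQO1 with an adjusted p of 6.86e-05 and SLC7A11 with 5.82e-08. TXNRD1 had 0.0659 there, and NQO1 missed the threshold without A02 (limma adjusted p = 0.0775). This setting passed 2.68% of probe sets, 0.981% as lower and 1.69% as higher. Of the 20866 symbols above the negative controls in it, 402 passed as lower and 805 as higher. With the trend option and the filter on low expression alone, 3 passed, SLC7A11 (limma adjusted p = 0.00219), NQO1 (0.0145) and TXNRD1 (0.0430), against 1.6% of probe sets, 0.474% as lower and 1.13% as higher. In the latter setting SLC7A11 missed the threshold without A01 (limma adjusted p = 0.0644), NQO1 without A01 or A02 (at most 0.212) and TXNRD1 without any 1 of the 5 arrays (0.0626 to 0.431). Of the 30083 symbols above the negative controls, 275 passed as lower and 729 as higher in that setting. In both trend settings limma used SDs below the genes' own for NQO1 and SLC7A11 and above it for TXNRD1. The SEs in the order of the settings were 0.102 and 0.0927 for NQO1, 0.152 and 0.135 for SLC7A11 and 0.157 and 0.107 for TXNRD1. The adjusted p of NQO1 and SLC7A11 thus rest on less variation than their own arrays showed. Without the trend option none of the 3 passed in any fit that was run.

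**Figure D3:**
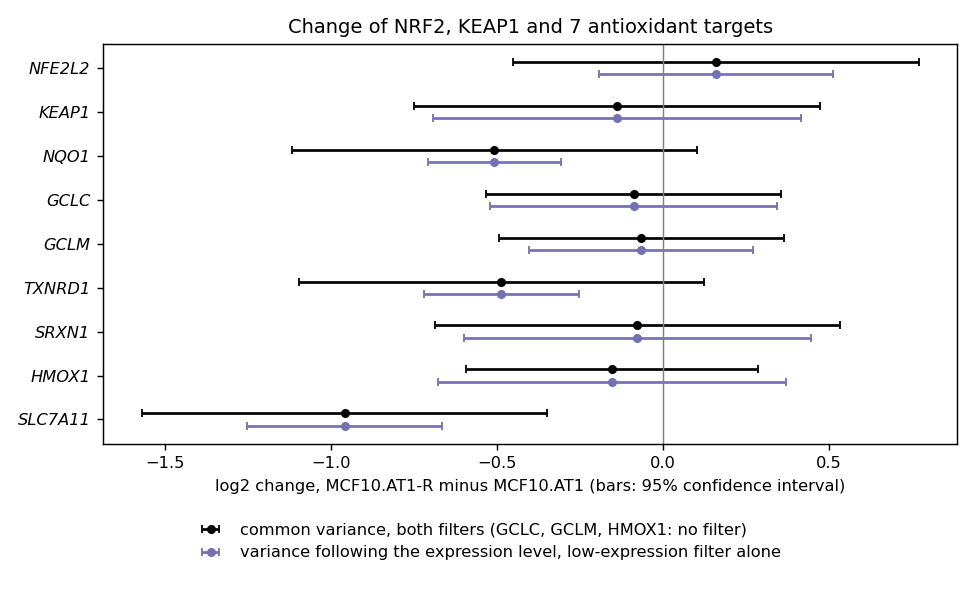
Change of the 9 genes in log2 units, MCF10.AT1-R minus MCF10.AT1, with 95% confidence intervals from the limma fit with a common variance in black and from the fit with the trend option and the low-expression filter alone in purple. GCLC, GCLM and HMOX1 are taken in black from the fit without a filter. SLC7A11 lies below 0 in both fits, NQO1 and TXNRD1 in the purple one, and the other 6 intervals include 0.

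Genes with a like array profile were sought for NQO1 and NFE2L2. Over the 5 arrays, the symbols whose centred profile was closest to NQO1 among 35760 were ASUN, skorgo and BZW1P2, at Euclidean distances of 0.051, 0.075 and 0.076 log2 units. ASUN read 7.41 and 7.44 in MCF10.AT1 and 6.90, 6.73 and 7.04 in MCF10.AT1-R. Closest to NFE2L2 were C11orf94, TDP2 and GTF2H5, at 0.029, 0.031 and 0.059. The 5 points of each profile come from 2 lines.

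The genes of proteins that hold, degrade or partner NRF2 went both ways. Of 14 such genes 13 were above the negative controls, 4 were higher in MCF10.AT1-R without overlap, 3 were lower and 6 overlapped, with a median change of 0.18. Over all symbols above the negative controls, 16.2% were higher and 16% lower without overlap. None of the 14 genes passed in the limma fit with a common variance. BTRC, the F-box protein of the other ligase that targets NRF2, read 5.67 and 5.45 in MCF10.AT1 and 6.33, 6.25 and 6.32 in MCF10.AT1-R, a change of 0.74 (limma adjusted p = 0.400). Its adjusted p was 0.0335 with limma's trend option, where GSK3B, the kinase that marks NRF2 for that ligase, also passed with a change of 0.41 (limma adjusted p = 1.77e-04). NFE2L3, an NRF2 relative, changed by -0.53 (limma adjusted p = 0.699). GSK3B was named here after its values were seen. With the trend option and the low-expression filter alone, limma's adjusted p was 0.0248 for BTRC and 0.0122 for GSK3B.

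Other NRF2 targets were read by role. Of 39 above the negative controls, 17 were lower in MCF10.AT1-R without overlap, 5 were higher and 17 overlapped, with a median change of -0.15. Over all symbols above the negative controls, 16% were lower and 16.2% higher without overlap. The limma fit with a common variance called 5 of the 27 targets in it, all lower and all enzymes of detoxication. In that fit 0.447% of all probe sets passed as lower, and 165 of the 20866 symbols above the negative controls. Without the aldo-keto reductases of the list, 12 of 34 were lower without overlap, 5 were higher and 1 was called, and the median change was -0.04.

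Among 18 detoxication genes 11 were lower without overlap and 1 was higher, against 16% and 16.2% of all symbols above the negative controls. The median change of the 18 was -0.63. AKR1C1, AKR1C2, AKR1C3 and AKR1B10, which reduce carbonyl groups of steroids and lipid aldehydes, fell by 2.96, 3.34, 2.56 and 1.76 on the log2 scale with limma adjusted p of at most 6.02e-06, and each passed without any 1 of the 5 arrays. The AKR1C genes are closely related in sequence, and their probes may not fully separate them. EPHX1, the microsomal epoxide hydrolase, read 6.65 and 6.30 in MCF10.AT1 and 5.69, 5.01 and 5.13 in MCF10.AT1-R, and its change of -1.20 passed (limma adjusted p = 0.0148). That call was lost without A01, A02, B03 or B04, with limma adjusted p of 0.488, 0.117, 0.0785 and 0.0854, and with the low-expression filter alone (0.209). ALDH3A1, an aldehyde dehydrogenase, and ABCC3, an exporter of conjugates, changed by -0.94 and -0.68 and did not pass (limma adjusted p = 0.139 and 0.492).

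The genes of enzymes that supply NADPH, which NQO1, thioredoxin reductase and glutathione reductase consume, went both ways. Of 6 genes 3 were higher without overlap, 2 were lower and 1 overlapped, with a median change of 0.23. Among all symbols above the negative controls 16.2% were higher and 16% lower without overlap. IDH1, the cytosolic isocitrate dehydrogenase, read 8.26 and 8.25 in MCF10.AT1 and 9.26, 9.15 and 9.08 in MCF10.AT1-R, a change of 0.91 in the direction opposite to NQO1 (limma adjusted p = 0.168). PGD, of the pentose phosphate pathway, changed by 0.50 (limma adjusted p = 0.743).

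Of 6 genes of heme and iron handling 2 were lower without overlap and 4 overlapped, with a median change of -0.09. Among all symbols above the negative controls 16% were lower and 16.2% higher without overlap, 32.2% in all. FTL, the ferritin light chain, read 10.25 and 10.20 in MCF10.AT1 and 9.22, 8.97 and 9.30 in MCF10.AT1-R. Its change of -1.06 was about that of SLC7A11 and just missed the threshold (limma adjusted p = 0.0539). SLC48A1, a heme transporter, changed by -0.41, and its lines overlapped.

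In the thioredoxin, peroxiredoxin and glutathione group 9 genes were above the negative controls, of which 2 were lower without overlap, 1 was higher and 6 overlapped, with a median change of -0.03. The share without overlap was near the 32.2% of all symbols above the negative controls, of which 16% were lower and 16.2% higher. GSR, glutathione reductase, read 6.95 and 6.73 in MCF10.AT1 and 5.67, 5.87 and 5.96 in MCF10.AT1-R, a level 2.01-fold lower (limma adjusted p = 0.0823). PIR, a nuclear iron-binding protein, changed by -0.72 (limma adjusted p = 0.430).

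**Figure D4:**
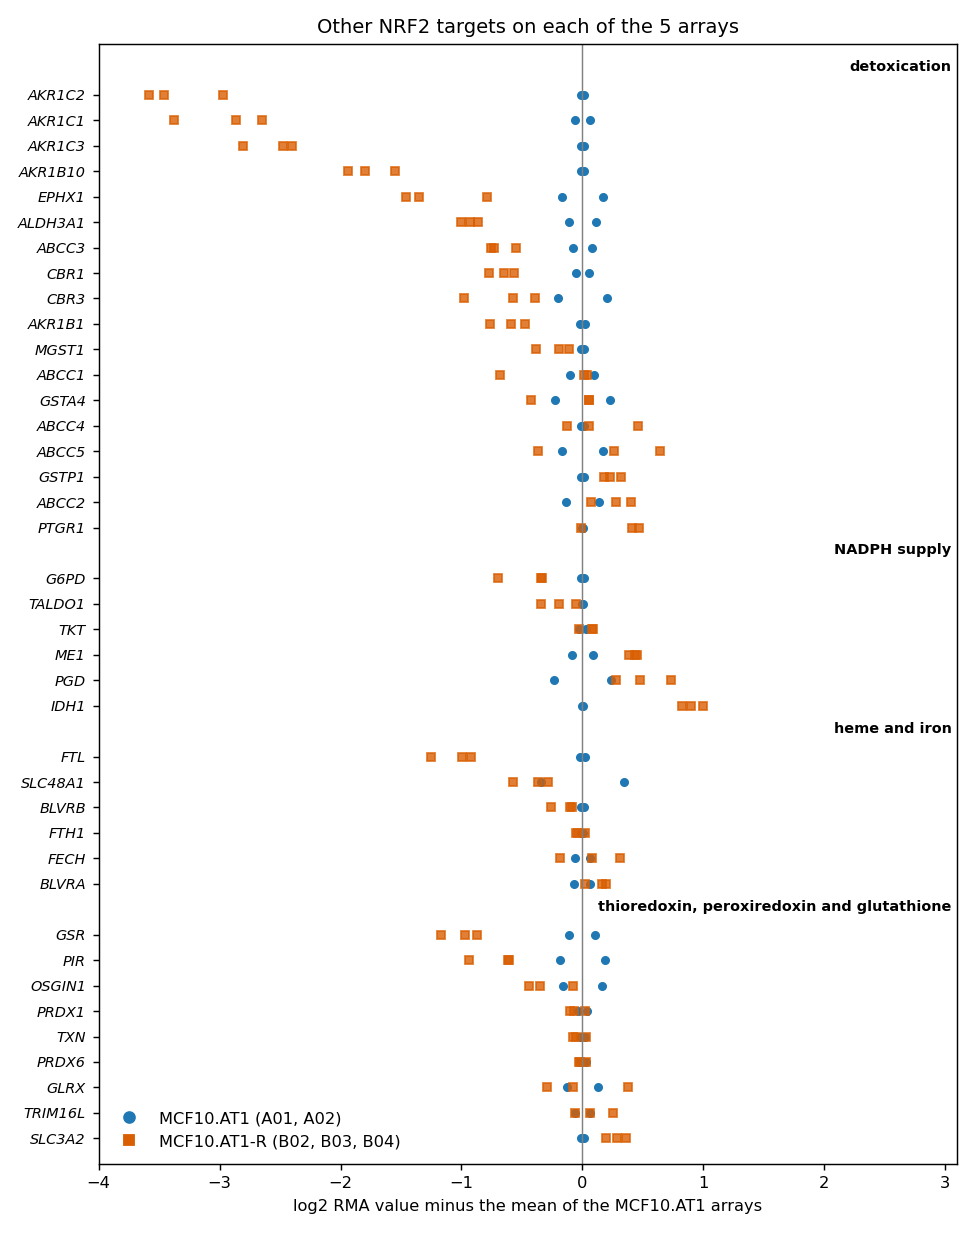
Log2 values of the 39 other NRF2 targets above the negative controls, each minus its own mean over A01 and A02, with circles for MCF10.AT1 and squares for MCF10.AT1-R. The aldo-keto reductases AKR1C1, AKR1C2, AKR1C3 and AKR1B10 lie farthest to the left, followed by EPHX1, FTL and GSR, while IDH1 lies farthest to the right.

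With limma's trend option, 12 of the 27 other targets in that fit were called lower and 1 higher. Of all probe sets 0.981% passed as lower and 1.69% as higher in this setting. Of the 20866 symbols above the negative controls in the fit, 402 were called lower and 805 higher. Which of these calls were lost without a single array is not given here. GSR (adjusted p = 1.59e-04), FTL (1.56e-29), ALDH3A1 (0.00942), ABCC3 (1.68e-06) and PIR (0.0145) were among those lower in this limma setting, and IDH1 (1.36e-13) was the 1 that was higher. For FTL the SD that limma used in it was below the gene's own residual SD of 0.141. For PIR it was about the gene's own, and for GSR, ALDH3A1, ABCC3 and IDH1 above it. Of the 18 genes called from the 7 lists in that setting, 17 were also called with the low-expression filter alone and the trend option. There limma's adjusted p was 0.00356 for GSR, 3.77e-05 for FTL, 0.0125 for ALDH3A1, 0.00233 for ABCC3, 0.0470 for PIR and 7.83e-05 for IDH1.

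Of the other targets 31 had a promoter window and 14 held the core of the element, as did 16.1% of all 27305 genes with a window. The 31 include GSTM3 and GPX2, within the negative controls, and UGT1A6, which was not matched on the array. GPX2 and UGT1A6 hold the core. Among the rest, the core stood in 4 of 11 genes that were lower without overlap and in 5 of 5 that were higher. Among those that overlapped it stood in 3 of 12. The windows of AKR1C1, AKR1C2 and AKR1C3 held no match. These are descriptions of letters near the annotated starts, and binding of NRF2 was not measured.

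Of 18 antioxidant genes outside the NRF2 targets that were above the negative controls, 6 were higher in MCF10.AT1-R without overlap, 1 was lower and 11 overlapped. Among all symbols above the negative controls 16.2% were higher and 16% lower without overlap, 32.2% in all. The median change of the 18 was 0.05, and none was called with limma's common variance. PRDX5, a peroxiredoxin of mitochondria and peroxisomes, changed by 0.68 (limma adjusted p = 0.490). Its adjusted p was 3.23e-14 with limma's trend option and 1.00e-04 with that option and the low-expression filter alone. SOD2, the mitochondrial superoxide dismutase, changed by 0.41 (limma adjusted p = 0.806).

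SLC7A11 is a target of ATF4, the factor of amino acid stress, as well as of NRF2, so 13 ATF4-pathway genes were read beside it. Of 12 above the negative controls 4 were lower in MCF10.AT1-R without overlap, 2 were higher, ATF3 among them, and 6 overlapped, with a median change of -0.05. Among all symbols above the negative controls 16% were lower and 16.2% higher without overlap. ATF3, a stress factor, read 2.33 and 2.75 in MCF10.AT1, within the negative controls, and 3.99, 3.64 and 3.97 in MCF10.AT1-R. It was above the controls only in the resistant line, which gives a bound, at least 1.83-fold higher there. The fit to the measured values passed (limma adjusted p = 0.00338), and the call was lost without A01 (0.358), with the low-expression filter alone (0.0966) and with values raised to the negative controls (0.108). DDIT4, an inhibitor of mTORC1, and PHGDH, of serine synthesis, changed by -0.94 and -0.65 and did not pass with the common variance (limma adjusted p = 0.131 and 0.542). With limma's trend option DDIT4 passed, as SLC7A11 did, with an adjusted p of 1.39e-09. With that option and the low-expression filter alone it had 3.10e-04. In these 2 limma settings the adjusted p was 0.295 and 0.293 for PHGDH and 0.00344 and 0.0190 for ATF3.

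**Figure D5:**
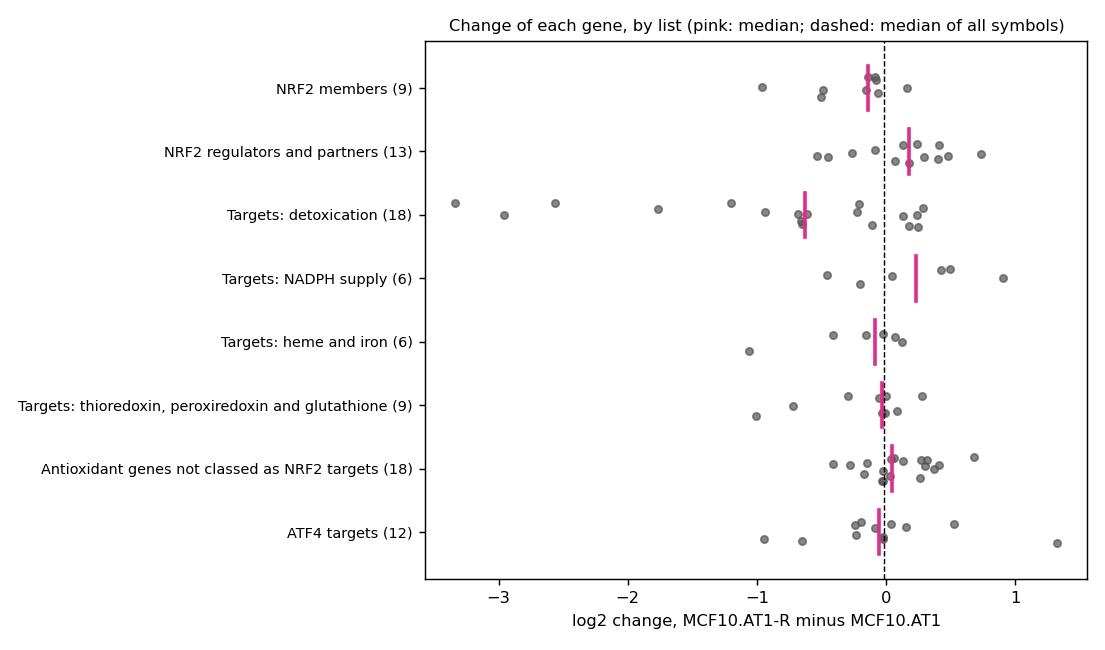
Change of each gene above the negative controls in log2 units, MCF10.AT1-R minus MCF10.AT1, by list, with the number of genes in brackets. Pink bars are list medians and the dashed line is the median of all symbols above the negative controls, -0.01. ATF3, farthest to the right in the ATF4 list, is drawn at its fitted value of 1.33 although its MCF10.AT1 arrays lay within the negative controls. The detoxication list has its median at -0.63, and the other list medians lie between -0.14 and 0.23.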

How the data were processed

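Total RNA of MCF10.AT1 and MCF10.AT1-R was measured on Clariom D arrays. The deposited values are log2 expression values that the authors computed from the CEL files by RMA with the Bioconductor packages affy and oligo. The version of RMA and the genome build of the array annotation are not given in the sources used here. The columns name arrays and carry neither line nor replicate number, so lines were read from the study's principal component plot. Of 135750 transcript probe sets, 51457 were tested, those with a mean over the 5 arrays above the median of 1.88 and an SD above the lowest 25%, 0.176. The lines were compared with limma 3.58.1 in R 4.3.3 (lmFit, eBayes, two-sided, Benjamini-Hochberg, FDR of 5%), after tests on simulated data. A gene counted as above the negative controls if its mean in either line exceeded 2.99, the mean over the arrays of their 95th percentile. The number of arrays, 2 and 3, limits the precision. The labels call replicates biological. All 9 genes are named, and from each other list the genes past the threshold and the 2 with the largest change besides. Genes, lists and markers were chosen with earlier results of these data known. Alternatives were A03 included, each array left out, other filters, a floor, renormalization, array weights and limma's trend option. Leaving out arrays together with the trend option was added after seeing the data. UGT1A6 was not matched.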

Additional observations from a re-analysis of the deposited data

How the results depend on the processing

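The filters, the trend option and averaging probe sets cannot move the change of a gene with 1 probe set, only its error and p. With A03 counted as MCF10.AT1, KEAP1, NQO1, GCLC, GCLM, TXNRD1, SRXN1 and SLC7A11 reversed to 0.38, 1.70, 0.65, 1.35, 1.47, 0.050 and 1.06, NFE2L2 went from 0.16 to 1.43, 26 probe sets passed limma's FDR of 5% and 0 of the list genes. The probe sets that passed, 620 as reported, were 182 with the low-expression filter alone, 177 with no filter, 272 with values raised to the floor of the negative controls, 1377 with the trend option and 1086 with the trend option and the low-expression filter alone. The trend option called 2 of the 9 genes, NQO1 (-0.51) and SLC7A11 (-0.96), and with the low-expression filter alone 3, TXNRD1 (-0.49) besides, against 0 as reported. It called 18 list genes under either filter, against 6. Leaving out each array in turn, with and without the trend option, gave 271 to 1347 probe sets, 0 to 2 of the 9 genes and 4 to 18 list genes. The change then ranged from 0.070 to 0.29 for NFE2L2, -0.28 to -0.025 for HMOX1, -0.40 to 0.081 for KEAP1, -0.57 to -0.42 for NQO1, -0.16 to 0.0039 for GCLC, -0.12 to 0.0095 for GCLM, -0.55 to -0.42 for TXNRD1, -0.20 to 0.15 for SRXN1 and -1.04 to -0.82 for SLC7A11, so KEAP1 and GCLM reversed without B03, SRXN1 without B02 and GCLC without B04. With 1 MCF10.AT1 array left, it was assumed to vary like the others. The cause of these shifts was not tested. No paired analysis was possible because the columns carry no replicate number. HMOX1 lay close to the negative controls, which limits any change that could be seen in it.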
